A study of Mus musculus with 19 samples.

Results

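The genes described here encode the nuclear subunits of the mitochondrial respiratory chain and ATP synthase. They were taken by symbol from the authors' normalized table: every symbol that starts with Nduf, Uqcr, Sdh followed by a to d, Cox4 to Cox8 or Atp5, without symbols that contain -ps. This gave 101 genes of 26221 rows. By role they were 40 genes of complex I, 4 of complex II, 8 of complex III, 20 of complex IV, 17 of ATP synthase and 12 assembly factors. The assembly factors share the prefixes but are not subunits of the finished complexes. Among the complex I genes, RefSeq lists Ndufs6b as a pseudogene and Ndufa11b as a transcribed pseudogene. The ATP synthase genes include Atp5s, which encodes coupling factor B and not a stable subunit.

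The libraries were made from sorted nasal epithelial cells of naive ChAT(BAC)-eGFP mice, which carry the transgene Tg(RP23-268L19-EGFP)2Mik on a B6.Cg background and in which enhanced green fluorescent protein (eGFP) is expressed from a bacterial artificial chromosome that carries the locus of Chat, the choline acetyltransferase gene. All groups came from this transgenic strain. FSClow (n = 9) were eGFP-positive epithelial cells (EpCAM-positive, CD45-negative) sorted for low scatter, and FSChi (n = 5) were the same population sorted for high scatter. EpCAM (n = 5) were EpCAM-positive, CD45-negative cells without eGFP. All cells passed enzymatic digestion of the tissue and exclusion of dead cells with a dye. Whether each library is a different animal is not given by the labels. The p-values therefore reflect sample-to-sample spread alone, and that spread may be technical.

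In the inner mitochondrial membrane, complexes I and II pass electrons from NADH and succinate to ubiquinone, complex III passes them to cytochrome c, and complex IV passes them to oxygen. Complexes I, III and IV pump protons, and ATP synthase uses the returning protons to make ATP. Most subunits are encoded in the nucleus and imported, whereas a few core subunits are encoded by mitochondrial DNA. Many of these genes are transcribed in nearly all cells from promoters bound by NRF1, GABP (an ETS family factor) and YY1. In the olfactory and respiratory mucosa the cells differ widely in ATP demand, with sensory neurons, ciliated cells and ion-transporting cells among the high consumers.

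Promoters are shown because these genes are known to share a small set of promoter motifs. Windows from 250 bases before to 50 bases after each RefSeq start (GRCm38.p6) were available for 81 of the 101 genes. The NRF1 motif (GCGCA, any base, then GCGC), searched like the others on both strands, stood in the windows of 21 of these genes, 25.9%, against 5.19% of 27025 genes with windows. The ETS motif CCGGAAG stood in 25.9% against 9.93%, and the YY1 motif AANATGGC in 24.7% against 6.96%. Any of the 3 motifs stood in 64.2% of the genes against 19.4% of all, and no gene had an ETS match overlapping a YY1 match. Of genes that passed the test between FSChi and FSClow described later, 6 of 36 with a window held the NRF1 motif, beside 15 of 40 tested genes that did not pass. The ETS motif stood in 10 of 36 and 10 of 40, and the YY1 motif in 9 of 36 and 11 of 40. For any of the 3 motifs it was 22 of 36 and 29 of 40, with no test of these splits. The windows of Atp5o, Cox6a1 and Uqcrc1 (each higher in FSChi than in FSClow, with the NRF1 motif) and of Cox7a2l (not higher, with none of the motifs) are printed 5′ to 3′ on the gene's strand, with NRF1 and ETS matches in capitals. They lie at chr16:91931581-91931880, minus strand, chr5:115348909-115349208, minus strand, chr9:108936398-108936697, plus strand, and chr17:83514284-83514583, minus strand. A match is a description of letters and does not show binding. Atp5o, Cox6a1 and Uqcrc1 were picked because they passed the test and held the NRF1 motif, and Cox7a2l for its lowest log2 fold change. The printed windows therefore do not show whether a motif goes with passing the test.
Atp5o: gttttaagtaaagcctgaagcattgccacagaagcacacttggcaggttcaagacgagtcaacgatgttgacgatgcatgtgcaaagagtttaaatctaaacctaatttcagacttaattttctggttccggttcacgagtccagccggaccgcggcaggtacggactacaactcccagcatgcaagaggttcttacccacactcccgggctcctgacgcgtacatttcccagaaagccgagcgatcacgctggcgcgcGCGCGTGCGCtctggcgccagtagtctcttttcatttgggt
Cox6a1: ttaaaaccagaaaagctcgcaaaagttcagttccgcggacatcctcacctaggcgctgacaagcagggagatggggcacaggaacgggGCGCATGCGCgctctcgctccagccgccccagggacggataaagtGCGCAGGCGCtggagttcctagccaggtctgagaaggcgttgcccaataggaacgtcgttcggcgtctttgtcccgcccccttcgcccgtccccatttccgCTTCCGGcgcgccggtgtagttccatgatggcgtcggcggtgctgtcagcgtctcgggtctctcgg
Uqcrc1: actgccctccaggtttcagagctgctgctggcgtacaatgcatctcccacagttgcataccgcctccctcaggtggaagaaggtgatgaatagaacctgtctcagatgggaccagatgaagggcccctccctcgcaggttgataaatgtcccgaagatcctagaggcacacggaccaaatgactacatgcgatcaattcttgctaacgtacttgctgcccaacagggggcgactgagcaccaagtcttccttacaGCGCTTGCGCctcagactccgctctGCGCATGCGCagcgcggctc
Cox7a2l: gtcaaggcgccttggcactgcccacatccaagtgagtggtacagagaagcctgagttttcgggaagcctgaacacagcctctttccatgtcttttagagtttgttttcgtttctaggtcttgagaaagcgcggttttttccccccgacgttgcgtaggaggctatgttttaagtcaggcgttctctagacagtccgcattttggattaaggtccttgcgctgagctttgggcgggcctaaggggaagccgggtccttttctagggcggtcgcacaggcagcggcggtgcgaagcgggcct

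Total counts ranged from 1348428 to 7477695 per library. Strand use in the counting is not given. Tuft or brush cell markers, 9 of 9 detected, summed to 7728 to 13231 CPM (counts scaled to library size) in the eGFP-positive libraries and to 11 to 27.7 CPM in EpCAM. Both eGFP-positive groups held all 4 epithelial markers. FSChi libraries also held markers of other cells: olfactory sensory neuron markers (7 of 7) summed to 20.1 to 3307 CPM in FSChi, 17.6 to 114 CPM in FSClow and 3067 to 5434 CPM in EpCAM. Secretory and gland markers (6 of 6) summed to 429.9 to 13196 CPM in FSChi, 26.1 to 277 CPM in FSClow and 7274 to 32479 CPM in EpCAM. Basal markers (5 of 5) summed to 28.6 to 1756 CPM, 1.43 to 111 CPM and 1564 to 4908 CPM in the same order. Sustentacular, ciliated and ionocyte markers (6 of 6 each) were also lowest in FSClow by their medians and highest in EpCAM. The sum of leukocyte markers was too. It came to 423 to 3343 CPM in EpCAM after the gate against CD45, 11.7 to 599 CPM in FSChi and 11.3 to 66.5 CPM in FSClow, with 2, 1 and 2 of 6 at 0. Single leukocyte markers did not all follow the sum. Of the 3 that were tested, 1 was higher and 1 lower in FSClow than in EpCAM (edgeR, adjusted p under 0.05). In FSChi 1 was higher and 0 lower than in EpCAM. FSClow replicates 1 and 2, FSChi replicate 1 and EpCAM replicate 5 stood apart in a further way. Summed ribosomal protein genes (86 genes) reached 36656, 37338, 31895 and 38021 CPM there, against 12923 to 24904 CPM elsewhere. Genes of the table other than those described here with transcripts under 1000 bases took 10.3, 10.6, 11.6 and 11.7% of CPM in these 4 libraries and 6.26 to 10.2% in the others.

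Summed over all 101 genes, the level was highest in FSChi and lowest in FSClow, with overlap between libraries. The summed level was 12991, 9309, 9253, 9764 and 10925 CPM in FSChi replicates 1 to 5. It was 6530.4, 8010.1, 6677, 7377 and 11570.4 CPM in EpCAM replicates 1 to 5, and in FSClow the lowest, median and highest libraries had 5416, 6447 and 9835 CPM. Apart from FSClow replicates 1 and 2, at 9835 and 9395 CPM, every FSClow library was below every FSChi library, and apart from EpCAM replicate 5 every EpCAM library was too. The FSChi mean was 10448 ± 1572 CPM (SD, n = 5), the FSClow mean 7076 ± 1588 CPM (SD, n = 9) and the EpCAM mean 8033 ± 2064 CPM (SD, n = 5). The ratio of means was 1.48 for FSChi to FSClow, 1.3 for FSChi to EpCAM and 0.881 for FSClow to EpCAM. Fewer cells of a type and less RNA per cell cannot be told apart in bulk samples. FSChi replicate 2, with a summed respiratory chain level of 9309 CPM, had the smallest total count of all libraries, 1348428. Its olfactory sensory neuron markers, at 20.1 CPM, lay within the FSClow range. Its basal markers, at 86.0 CPM, lay above every FSClow library but replicate 1, which had 111 CPM. Its secretory and gland markers, at 429.9 CPM, lay above every FSClow library. The 4 libraries with the highest ribosomal protein level had the highest summed level in FSChi and EpCAM and the 2 highest in FSClow, and without them the ratios were 1.55, 1.37 and 0.888. The part of the markers and of the ribosomal protein level in the result was not tested.

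**Figure D1:**
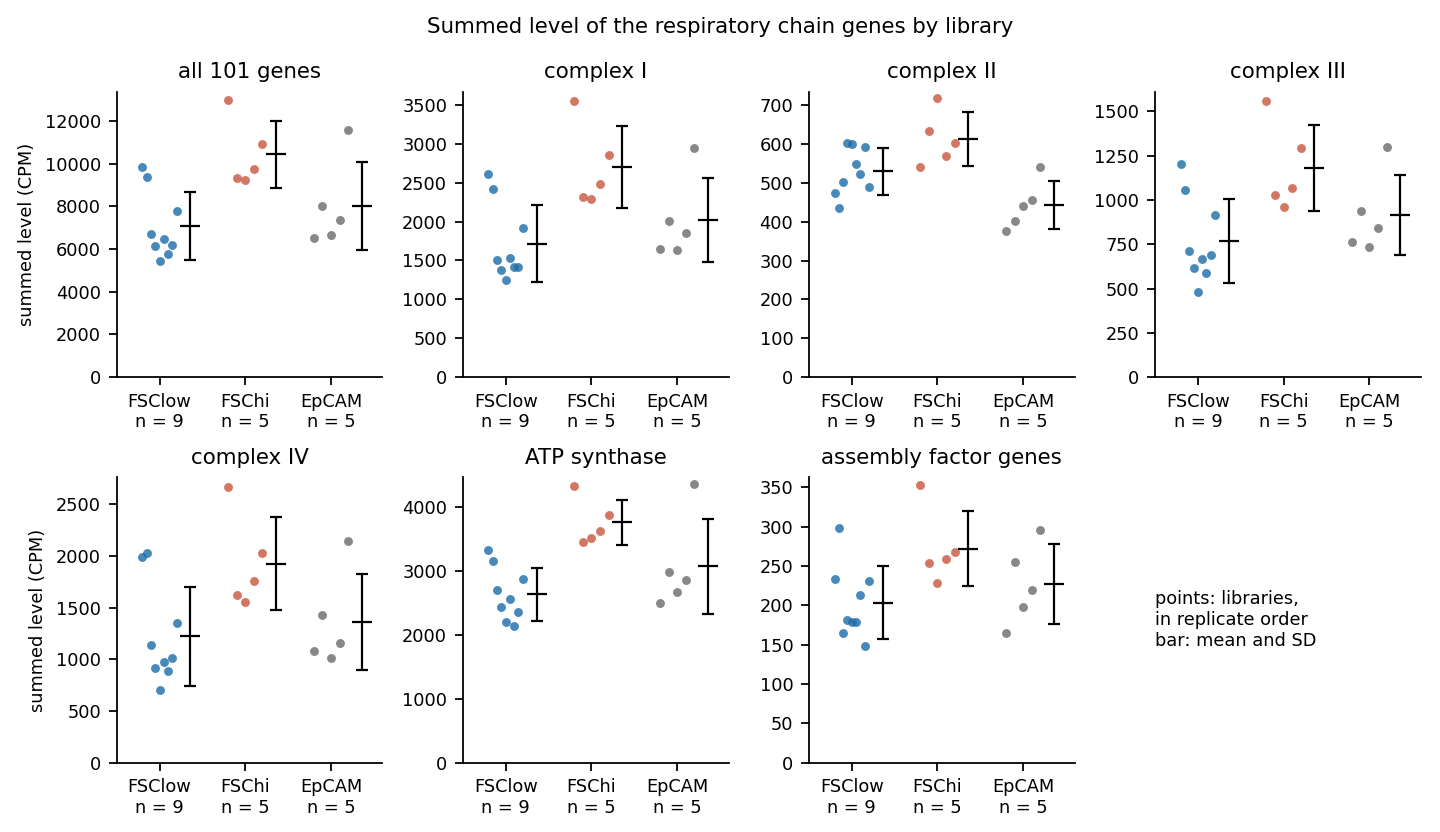
Summed level in CPM (y axis, from 0) of all 101 genes and of each complex or role in FSClow (n = 9), FSChi (n = 5) and EpCAM (n = 5); points are libraries in replicate order and bars are mean and SD. FSChi means lie above FSClow means in every panel, with overlapping libraries in most, and FSClow replicates 1 and 2 are high in all complexes except complex II.

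Of the 101 genes, 92 passed the filter on low counts and were tested. Between FSChi and FSClow, 40 of the 92 were higher in FSChi and 0 were lower (edgeR quasi-likelihood test, adjusted p under 0.05), where 24.8% of all 13340 genes tested were called, 15.5% higher and 9.3% lower. At an unadjusted p under 0.05, 62 were higher and 0 lower. The share of all genes at an unadjusted p is not given, for this or the other comparisons. The median log2 fold change of the 92 was 0.64, beside -0.01 for all genes tested, and 90 of 92 values were positive. For 5 genes all FSChi libraries lay above all FSClow libraries, namely Ndufa1, Cox6a1, Atp5o, Atp5mpl and Atp5b, a separation found in 3.98% of all genes tested. The count depended on single libraries: without FSChi replicate 1 it was 22, and without the 4 libraries of high ribosomal protein level it was 64. The reverse separation, seen in 2.55% of all genes, was found for 0 of the 92.

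FSChi against EpCAM gave a smaller set. In this comparison 10 of the 92 genes were higher in FSChi and 0 were lower, where 25.6% of all genes were called, 13.5% higher and 12.2% lower. At an unadjusted p under 0.05, 25 were higher and 0 lower. The median log2 fold change was 0.36, beside -0.02 for all genes. A share of 10.9% called higher is near the background of 13.5%. All FSChi libraries lay above all EpCAM libraries for 8 genes, 7 of them among the 10, where 10.2% of all genes were so separated, and 0 lay below, where 11.3% did. Without EpCAM replicate 5 the count was 25. It was 5 without FSChi replicate 1 or 5, and 4 without EpCAM replicate 1, 3 or 4.

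FSClow against EpCAM went mainly the other way. Of the 92 genes, 14 were lower in FSClow and 4 were higher, where 45.1% of all genes were called, 23.1% lower and 22.0% higher. The share of the 92 genes called, 19.6%, was below that background. The median log2 fold change was -0.32, beside 0.05 for all genes, and no gene had all libraries of one group above all of the other, a separation found in 10.7% of all genes upward and 15.6% downward. Without EpCAM replicate 5 the lower count was 7, and without FSClow replicate 2 it was 26. The higher count was 1 without EpCAM replicate 1 and 2 without EpCAM replicate 3 or 4. With relative log expression (RLE) scaling, which moved the median of all genes from 0.05 to -0.14, 24 genes were lower and 2 higher.

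**Figure D2:**
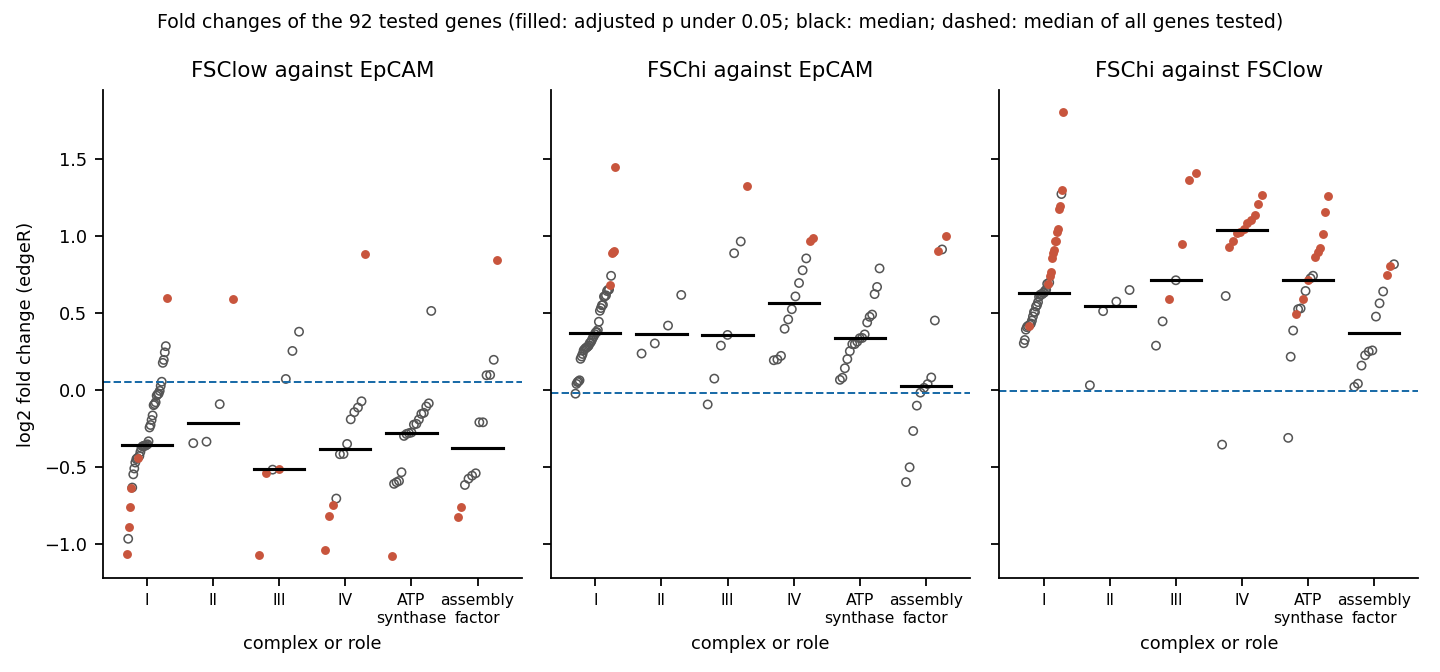
Log2 fold changes from edgeR (y axis) of the 92 tested genes in the 3 comparisons, by complex or role (x axis); filled points passed an adjusted p of 0.05, black lines are medians and dashed lines the median of all genes tested. In FSChi against FSClow the complex IV median of 1.03 is the highest, and in FSClow against EpCAM every role has a median below 0.

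Complex I, the NADH dehydrogenase, had 40 tested genes. In FSChi against FSClow 15 were higher, 37.5%, and 0 lower, with a median log2 fold change of 0.63. For this and the other complexes, the share of all genes called higher in FSChi than in FSClow was 15.5%. In FSClow against EpCAM the shares of all genes were 22.0% higher and 23.1% lower. Ndufa1, a small membrane-arm subunit encoded on the X chromosome (Entrez 54405, chromosome X, 37187588 to 37191238, GRCm38), differed most of all 92 genes. Its level was 92.6, 59.5, 58.5, 50.6 and 58.1 CPM in FSChi replicates 1 to 5, and 9.68, 20.1 and 30.7 CPM in the lowest, median and highest FSClow libraries. In EpCAM it was 16.5, 20.9, 16.7, 17.8 and 45.3 CPM. All FSChi libraries were above all others. The log2 fold change was 1.80 ± 0.29 (SE) against FSClow (edgeR adjusted p = 6.6e-05) and 1.44 ± 0.34 (SE) against EpCAM (edgeR adjusted p = 0.0030).

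Ndufb6, an accessory subunit of the membrane arm (Entrez 230075, chromosome 4, 40270591 to 40279421), was low in FSClow, at 8.60, 13.0 and 36.2 CPM (lowest, median, highest). It stood at 59.7, 28.1, 36, 35.8 and 45.4 CPM in FSChi and at 25.5, 38.7, 28.1, 32.4 and 50.6 CPM in EpCAM. FSClow overlapped both other groups through its replicates 1 and 2. Its log2 fold change was 1.3 ± 0.30 (SE) in FSChi against FSClow (edgeR adjusted p = 0.0023) and -1.06 ± 0.30 (SE) in FSClow against EpCAM (edgeR adjusted p = 0.0049). Ndufa10, an accessory subunit of the same arm (Entrez 67273, chromosome 1, 92439486 to 92473825), had 205, 129, 99.6, 122 and 167 CPM in FSChi and 52.4, 67.8 and 128 CPM in FSClow. In EpCAM it had 93.3, 124, 96.8, 113 and 201 CPM. FSClow overlapped both other groups through its replicate 1. Ndufa10 was higher in FSChi than in FSClow by 0.96 ± 0.22 (SE, log2, edgeR adjusted p = 0.0023). It was lower in FSClow than in EpCAM with log2 fold change -0.76 ± 0.22 (SE, edgeR adjusted p = 0.0066), a call lost without EpCAM replicate 5 (adjusted p = 0.053, with 0.00031 to 0.053 over the alternatives).

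Subunits of the peripheral arm, which holds the flavin and iron-sulfur clusters, were led by Ndufs8, an iron-sulfur protein (Entrez 225887, chromosome 19, 3908863 to 3912774). It had 150.0, 143, 81.8, 96.3 and 121 CPM in FSChi, and 36.1, 51.4 and 95.7 CPM in FSClow. FSChi was higher by 1.04 ± 0.21 (SE, log2, edgeR adjusted p = 0.00065), with overlap of libraries. Against EpCAM, at 63.6, 74.9, 64.8, 70.1 and 96.1 CPM, the log2 fold change of Ndufs8 was 0.68 ± 0.24 (SE, edgeR adjusted p = 0.042). That call was lost in 12 of 19 fits that left out 1 library (all FSChi but replicate 3, all EpCAM but replicate 5, and FSClow replicate 2, 4, 5 or 7), with adjusted p-values of 0.011 to 0.15 over all alternatives. Ndufs7, which carries the last iron-sulfur cluster before ubiquinone, was higher in FSChi than in EpCAM by 0.90 ± 0.27 (SE, log2, edgeR adjusted p = 0.015). Ndufs5, an accessory subunit of the membrane arm and not of the peripheral arm, was higher by 0.89 ± 0.30 (SE, log2, edgeR adjusted p = 0.032). Leaving out FSChi replicate 1 or EpCAM replicate 1, 3 or 4 ended both calls, and leaving out FSChi replicate 5 ended that of Ndufs5.

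Ndufa9, an accessory subunit close to the ubiquinone site (Entrez 66108, chromosome 6, 126821863 to 126849144), was the 1 complex I gene called higher in FSClow than in EpCAM. It had 178, 113, 115, 120.0 and 153 CPM in FSChi, 73.9, 108 and 156 CPM in FSClow, and 61.5, 78.9, 57.3, 78.8 and 88.7 CPM in EpCAM. All FSChi libraries were above all EpCAM libraries, and FSClow overlapped both. The log2 fold change against EpCAM was 0.89 ± 0.20 (SE, edgeR adjusted p = 0.0023) for FSChi and 0.59 ± 0.18 (SE, edgeR adjusted p = 0.010) for FSClow, the latter lost without EpCAM replicate 1 or 3 (adjusted p = 0.075 and 0.087, with 0.00030 to 0.14 over the alternatives). Between FSChi and FSClow it did not pass the test (log2 fold change 0.30 ± 0.18, SE, edgeR adjusted p = 0.23). The other complex I genes called higher in FSChi than in FSClow were Ndufb9 (1.19 ± 0.26, SE, log2, edgeR adjusted p = 0.0014), Ndufb8, Ndufc1, Ndufc2, Ndufb7, Ndufv1, Ndufab1, Ndufs4, Ndufs6, Ndufa5 and Ndufb3, with log2 fold changes of 0.42 to 1.18 after Ndufb9. Lower in FSClow than in EpCAM were, besides Ndufb6 and Ndufa10, Ndufc1, Ndufb8 and Ndufv1, with log2 fold changes of -0.89, -0.64 and -0.44.

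Complex II, the succinate dehydrogenase, is the only complex of the chain with no subunit encoded by mitochondrial DNA. Of its 4 genes 0 passed the edgeR test between FSChi and FSClow, and 2 had an unadjusted p under 0.05, Sdhb and Sdhc. Their log2 fold changes were 0.03 to 0.65. Sdha, the flavoprotein that binds succinate (Entrez 66945, chromosome 13, 74322255 to 74350240), had 209.7, 414 and 495 CPM in FSClow (lowest, median, highest). It had 191, 450.0, 545, 367 and 373 CPM in FSChi and 217, 210.1, 273, 279 and 278 CPM in EpCAM. The 3 lowest eGFP-positive libraries were FSClow replicates 1 and 2 and FSChi replicate 1, which had the highest summed level of the whole set in their groups. Sdha passed the test in FSClow against EpCAM (log2 fold change 0.59 ± 0.23, SE, edgeR adjusted p = 0.045), but leaving out any 1 of 15 of the 19 libraries ended the call, with adjusted p-values of 0.00054 to 0.35 over all alternatives. The 4 whose removal kept it were FSClow replicates 1, 2 and 9 and FSChi replicate 2. Sdhb, the iron-sulfur subunit, had means of 125 ± 46.3 CPM (SD, n = 9) in FSClow, 186 ± 68.6 CPM (SD, n = 5) in FSChi and 158 ± 36 CPM (SD, n = 5) in EpCAM, and passed in no comparison.

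Complex III, the cytochrome bc1 complex, had 7 tested genes of 8, of which 4 were higher in FSChi than in FSClow and 3 were lower in FSClow than in EpCAM. Uqcrq, a small membrane subunit (Entrez 22272, chromosome 11, 53427922 to 53430831), had 8.60, 18.5 and 40.2 CPM in FSClow. It had 65.8, 43.4, 39.1, 48.7 and 59.5 CPM in FSChi and 29.3, 44.9, 29.9, 31.3 and 75.0 CPM in EpCAM. FSClow overlapped the other groups through its highest libraries. The log2 fold change was 1.36 ± 0.30 (SE) in FSChi against FSClow (edgeR adjusted p = 0.0017) and -1.07 ± 0.30 (SE) in FSClow against EpCAM (edgeR adjusted p = 0.0051).

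Uqcrh, the acidic hinge protein at the cytochrome c docking site (Entrez 66576, chromosome 4, 116066965 to 116075070), had another pattern. It had 330.4, 204, 146, 183 and 277 CPM in FSChi and 76.2, 119, 73.9, 85.2 and 102 CPM in EpCAM, with no overlap. In FSClow it had 53.1, 94.4 and 225 CPM and overlapped both. It was higher in FSChi than in EpCAM by 1.32 ± 0.32 (SE, log2, edgeR adjusted p = 0.0040), and than in FSClow by 0.94 ± 0.27 (SE, log2, edgeR adjusted p = 0.014). The second call was lost without FSChi replicate 1 (adjusted p = 0.053, with 0.00082 to 0.076 over the alternatives). Uqcr10, a small subunit, was higher in FSChi than in FSClow by 1.4 ± 0.31 (SE, log2, edgeR adjusted p = 0.0017). Uqcrc1, a core protein, was higher in FSChi than in FSClow by 0.59, and it and the Rieske iron-sulfur protein gene Uqcrfs1 were lower in FSClow than in EpCAM by log2 fold changes of -0.52 and -0.54. Uqcrc2, the other core protein gene, lay at 189 ± 51.5, 229.7 ± 39.8 and 179.6 ± 16.6 CPM (SD) in FSClow (n = 9), FSChi (n = 5) and EpCAM (n = 5) and passed in no comparison.

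Complex IV, cytochrome c oxidase, had the highest share of calls between FSChi and FSClow. Of its 12 tested genes 10 were higher in FSChi, 83.3%, with a median log2 fold change of 1.03. The nuclear subunits surround a catalytic core of mitochondrially encoded proteins and include genes with tissue-specific copies. Cox5a, one of the first nuclear subunits to join in assembly (Entrez 12858, chromosome 9, 57517328 to 57532427), had 233, 147, 102, 129 and 153 CPM in FSChi and 33.0, 61.9 and 104 CPM in FSClow. In EpCAM it had 83.8, 113, 87.4, 97.9 and 175 CPM. FSChi replicate 3 lay within the FSClow range, and the other FSChi libraries lay above it. The log2 fold change was 1.2 ± 0.24 (SE) in FSChi against FSClow (edgeR adjusted p = 0.00068). It was -0.75 ± 0.24 (SE) in FSClow against EpCAM (edgeR adjusted p = 0.015), which was lost without EpCAM replicate 5 (adjusted p = 0.093, with 0.00022 to 0.10 over the alternatives).

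Ndufa4, first assigned to complex I and now placed in complex IV (Entrez 17992, chromosome 6, 11900372 to 11907450), had 188, 99.6, 98.6, 121 and 126 CPM in FSChi, 17.6, 45.3 and 100.3 CPM in FSClow, and 87.0, 117, 78.2, 88.5 and 173 CPM in EpCAM. The FSChi and FSClow ranges met at about the level of the highest FSClow library. Ndufa4 was higher in FSChi than in FSClow by 1.26 ± 0.30 (SE, log2, edgeR adjusted p = 0.0030). In FSClow against EpCAM its log2 fold change was -1.04 ± 0.30 (SE, edgeR adjusted p = 0.0061).

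Cox8a, the smallest of the widely expressed subunits (Entrez 12868, chromosome 19, 7215158 to 7217616), had 379, 223, 221, 233 and 319 CPM in FSChi, 64.5, 120.1 and 223 CPM in FSClow, and 95.4, 130.0, 111, 103 and 254 CPM in EpCAM. The highest FSClow library and EpCAM replicate 5 reached the FSChi range. FSChi was higher by 1.13 ± 0.27 (SE, log2, edgeR adjusted p = 0.0034) against FSClow and by 0.99 ± 0.32 (SE, log2, edgeR adjusted p = 0.025) against EpCAM. The call against EpCAM was lost in 6 of 19 fits that left out 1 library (FSChi replicate 1 or 5, EpCAM replicate 1, 2, 3 or 4). Cox6c was also higher in FSChi than in EpCAM (0.96 ± 0.34, SE, log2, edgeR adjusted p = 0.040), a call lost in 8 of those fits (FSChi replicates 1, 3 and 5, FSClow replicates 4 and 7, EpCAM replicates 1, 3 and 4). Cox6a1 had 142, 129, 100.2, 115 and 129 CPM in FSChi and 37.4, 56.3 and 95.7 CPM in FSClow, without overlap, and was higher by 1.02 ± 0.26 (SE, log2, edgeR adjusted p = 0.0058). Cox6c, Cox6b1, Cox7a2, Cox5b, Cox7b and Cox7c completed the genes higher in FSChi than in FSClow, at log2 fold changes of 0.93 to 1.1. Cox4i1, the regulatory subunit that binds nucleotides, stood at 445 ± 120.1 CPM (SD, n = 5) in FSChi, against 292 ± 112 CPM (SD, n = 9) in FSClow, and did not pass (log2 fold change 0.61 ± 0.24, SE, edgeR adjusted p = 0.067).

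Cox7a2l, a relative of the Cox7a subunits (Entrez 20463, chromosome 17, 83501917 to 83514333), was the 1 tested complex IV gene with a lower value in FSChi than in FSClow. It had 345, 239, 310.0, 306 and 256 CPM in FSChi, 257, 313 and 617 CPM in FSClow and 185, 189.6, 162, 197 and 282 CPM in EpCAM. FSClow lay above EpCAM except for EpCAM replicate 5. FSClow was higher than EpCAM by 0.88 ± 0.22 (SE, log2, edgeR adjusted p = 0.0023). FSChi against FSClow gave -0.36 ± 0.22 (log2, SE, edgeR adjusted p = 0.25). On TPM in 18 single-library files, which is scaled by transcript length, and with offsets for a trend with length, Cox7a2l passed as lower in FSChi, with log2 fold changes of -0.46 and -0.56.

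**Figure D3:**
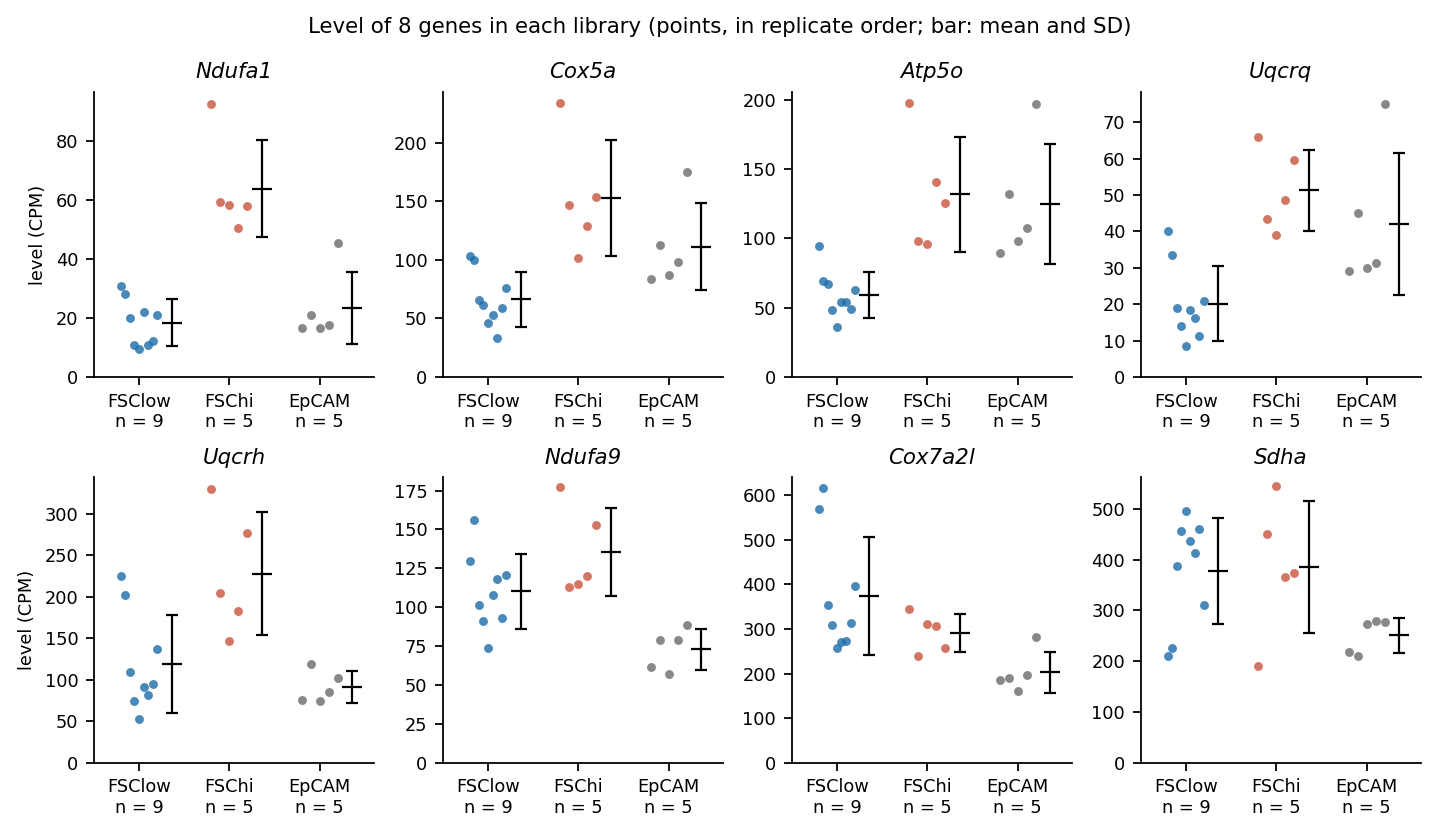
Level in CPM (y axis, from 0) of 8 genes in each library; points are libraries in replicate order and bars are mean and SD for FSClow (n = 9), FSChi (n = 5) and EpCAM (n = 5). Ndufa1 in FSChi lies above all other libraries, Atp5o and Uqcrq have their lowest means in FSClow, and Ndufa9, Cox7a2l and Sdha have means in FSClow above those in EpCAM.

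ATP synthase had 17 tested genes, of which 9 were higher in FSChi than in FSClow and 1 was lower in FSClow than in EpCAM. The latter is 5.88% of the 17, below the 23.1% of all genes. Atp5o, the stalk protein that links the catalytic head to the peripheral stalk (Entrez 28080, chromosome 16, 91925223 to 91931630), had 198, 98.0, 96.2, 141 and 126 CPM in FSChi and 35.9, 53.9 and 94.2 CPM in FSClow. In EpCAM it had 89.7, 132, 98.5, 108 and 197 CPM. All FSChi libraries were above all FSClow libraries, and 1 FSClow library reached the EpCAM range. The log2 fold change was 1.15 ± 0.22 (SE) in FSChi against FSClow (edgeR adjusted p = 0.00041) and -1.08 ± 0.22 (SE) in FSClow against EpCAM (edgeR adjusted p = 0.00029). Between FSChi and EpCAM it was 0.08 ± 0.26 (SE, edgeR adjusted p = 0.86).

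The catalytic beta subunit gene Atp5b (Entrez 11947, chromosome 10, 128083307 to 128090388) had a smaller fold change than Atp5o, a difference that was not tested. It had 1250.4, 1229, 1165, 1078 and 1109 CPM in FSChi, 644, 823 and 924 CPM in FSClow and 735, 898, 811, 859 and 1318 CPM in EpCAM. FSChi did not overlap FSClow and was higher by 0.49 ± 0.16 (SE, log2, edgeR adjusted p = 0.023). That call was lost in 5 of 15 alternatives other than leaving out 1 library, with edgeR, DESeq2 or limma adjusted p-values of 0.00070 to 0.15 over all alternatives. The alpha subunit gene Atp5a1 did not pass, at 797 ± 130.4 CPM (SD, n = 5) in FSChi against 687 ± 79.4 CPM (SD, n = 9) in FSClow. Atp5mpl, a small proteolipid of the membrane sector, had 58.8, 26.5, 29.2, 37.3 and 41.1 CPM in FSChi and 9.08, 14.5 and 25.3 CPM in FSClow, without overlap, and was higher by 1.26 ± 0.28 (SE, log2, edgeR adjusted p = 0.0017). Atp5l, Atp5g1, Atp5j2, Atp5e, Atp5c1 and Atp5f1 were also higher, at log2 fold changes of 0.59 to 1.01. Atp5s, the coupling factor B gene, had the other negative value of the 92 genes, with 14.6 ± 3.36 CPM (SD, n = 5) in FSChi against 18.4 ± 3.6 CPM (SD, n = 9) in FSClow, and did not pass.

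The proton-carrying c ring of ATP synthase is built from 1 mature protein that is encoded by the genes Atp5g1, Atp5g2 and Atp5g3, on chromosomes 11, 15 and 2. In the annotated coding sequences (GENCODE M21), the last 228 bases, stop codon included, of the 3 genes translate to the same residues although Atp5g2 and Atp5g3 differ from Atp5g1 at 34 and 45 bases of that stretch. The first 90 bases of it are shown because reads of these genes are told apart by such positions, which are in capitals.
Atp5g1: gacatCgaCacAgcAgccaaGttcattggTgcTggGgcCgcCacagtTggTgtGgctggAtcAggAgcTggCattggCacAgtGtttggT
Atp5g2: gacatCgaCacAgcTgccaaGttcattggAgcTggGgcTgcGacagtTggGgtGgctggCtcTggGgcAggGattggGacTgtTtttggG
Atp5g3: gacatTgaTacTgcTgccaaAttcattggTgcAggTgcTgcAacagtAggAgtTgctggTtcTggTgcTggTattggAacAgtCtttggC
Atp5g1 had 75.2 ± 25.9 CPM (SD, n = 5) in FSChi and 40.1 ± 23.0 CPM (SD, n = 9) in FSClow and passed as higher (log2 fold change 0.92). Atp5g2 had 93.9 ± 25.3 and 65.6 ± 23.9 CPM and Atp5g3 had 199 ± 52.2 and 121 ± 57.2 CPM in the same groups, and neither passed (log2 fold changes 0.52 and 0.72). No test was made of a difference between the 3 genes.

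Of the 12 assembly factors, 2 were higher in FSChi than in FSClow (Ndufaf7 and Sdhaf1) and 2 higher in FSChi than in EpCAM (Ndufaf3 and Sdhaf1), each 16.7%, near the 15.5% and 13.5% of all genes. In FSClow against EpCAM 1 was higher (Ndufaf3) and 2 lower (Ndufaf4 and Ndufaf7), in all 25.0% beside 45.1% of all genes. Their median log2 fold change in FSChi against FSClow, 0.36, was below the 0.67 of the other 80 tested genes, a difference that was not tested. Ndufaf3, which acts in early assembly of the ubiquinone-binding module of complex I (Entrez 66706, chromosome 9, 108565587 to 108567436), had 70.8, 48.2, 42.1, 46.9 and 58.5 CPM in FSChi, 32.3, 39.6 and 81.2 CPM in FSClow and 18.5, 34.7, 21.5, 18.9 and 39.8 CPM in EpCAM. FSChi lay above EpCAM in every library and FSClow overlapped both. It was higher than in EpCAM by 1.0 ± 0.27 (SE, log2, edgeR adjusted p = 0.0090) in FSChi and by 0.84 ± 0.25 (SE, log2, edgeR adjusted p = 0.0071) in FSClow. The FSClow call was lost without EpCAM replicate 1 or 4 (adjusted p = 0.0505 and 0.0515, with 5.6e-05 to 0.067 over the alternatives). Sdhaf1, which helps to place iron-sulfur clusters in complex II, was higher in FSChi than in EpCAM by 0.90 ± 0.30 (SE, log2, edgeR adjusted p = 0.029), a call lost in 8 of 19 fits that left out 1 library, namely FSChi replicate 1, 2, 4 or 5 or EpCAM replicate 1, 2, 3 or 4.

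Several subunits have tissue-restricted copies, and these were near or at 0 in most libraries. Cox6a2, the heart and muscle form of Cox6a, had 0 counts in all 19 libraries, which allows a level of up to 0.0390 CPM over them. Cox7a1 and Cox8b, the other muscle forms, the Cox4i1 relative Cox4i2, and the testis forms Cox6b2, Cox7b2 and Cox8c did not pass the filter, nor did the Ndufa4 relative Ndufa4l2 or the complex III subunit gene Uqcr11. Cox8b had 2.16, 2.14, 3.56, 3.58 and 4.97 CPM in EpCAM and 0 to 0.403 CPM in FSClow, without overlap. In FSChi it had 0.470, 0, 0.403, 2.99 and 0 CPM. Ndufa4l2 was below 1 CPM in all FSClow libraries but had 5.64 and 10.6 CPM in FSChi replicates 1 and 5 and 12.4 CPM in EpCAM replicate 5, with at most 1.61 CPM in the other libraries.

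Levels can be compared between genes only per length, which TPM in 18 of the 19 single-library files allows. By median TPM the most abundant in FSChi were Atp5b (1267 TPM in FSClow, 1588 TPM in FSChi, 1257 TPM in EpCAM), Cox8a (707, 1316 and 659 TPM in the same order) and Cox4i1 (972, 1281 and 1226 TPM). Medians over genes were 128, 177 and 142 TPM for complex I in FSClow, FSChi and EpCAM, 211, 352 and 251 TPM for complex III, 164, 330.2 and 236 TPM for complex IV, and 215, 411 and 322 TPM for ATP synthase. Complex II had 167, 191 and 134 TPM, and assembly factors 15.7, 21.3 and 19.1 TPM. Complex II was thus the 1 complex whose median was higher in FSClow than in EpCAM on this scale, a description of 4 genes with no test.

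Reads per gene differed between the authors' count table and their RSEM files for some of these genes. Over the 14 libraries whose column matched its own file, the median ratio of RSEM to table reads was 0.907 for 92 genes with at least 100 reads, near the 0.903 of all genes. Uqcr11, a complex III subunit, had 8 reads in the count table and 1500 by RSEM. Sdhd, a membrane anchor of complex II, had 294 and 4572 reads, Ndufa8 had 517 and 2835, and Cox7a2 had 1100 and 2519. In the other direction Ndufs6b had 124 and 2 reads, Ndufa11b 124 and 14, and Atp5g2 4020 and 1207. The symbols of Ndufs6b, Ndufa11b, Ndufb4b and Ndufb4c name them as copies of Ndufs6, Ndufa11 and Ndufb4. How alike the copies are was not measured here, and their values are given as uncertain. With RSEM counts of 18 files, the log2 fold change of Uqcr11 was 0.86 ± 0.36 (SE, edgeR adjusted p = 0.10) in FSChi against FSClow. Sdhd and Ndufa8 had 0.59 ± 0.26 and 0.69 ± 0.26 (SE, edgeR adjusted p = 0.11 and 0.066). Cox7a2, called higher on the count table, had 0.88 ± 0.33 (SE, edgeR adjusted p = 0.062) by RSEM and was not called there.

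**Figure D4:**
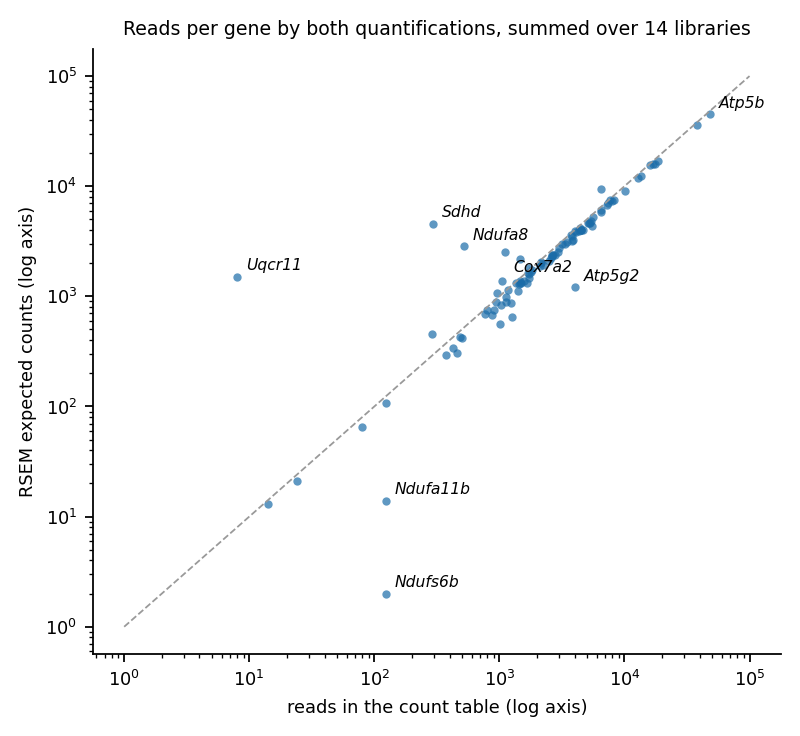
Reads per gene summed over 14 libraries in the authors' count table (x axis, log) and as RSEM expected counts (y axis, log), for genes with reads in both; the dashed line marks equal numbers. Most genes lie just under the line, Uqcr11, Sdhd, Ndufa8 and Cox7a2 lie above it, and Ndufs6b, Ndufa11b and Atp5g2 lie below it.

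Transcript length moved with the fold changes. The transcripts of the 91 tested genes with a length had a median of 716 bases (348 to 4323). Across these genes the correlation of log2 fold change with log2 length was -0.53 in FSChi against FSClow, -0.37 in FSChi against EpCAM and 0.17 in FSClow against EpCAM, a description over genes that share the same libraries. In FSChi against FSClow, 31 of 63 genes under 1000 bases were higher, 49.2%, with a median of 0.77, beside 15.9% higher and a median of 0.25 for 1290 other genes under 1000 bases. Of 28 genes of 1000 bases or more, 9 were higher, 32.1%, with a median of 0.51, beside 15.5% and -0.06 for 11527 other genes of that length. With offsets for a trend with length in each library, 18 genes were higher in FSChi than in EpCAM and 24 were lower in FSClow than in EpCAM.

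**Figure D5:**
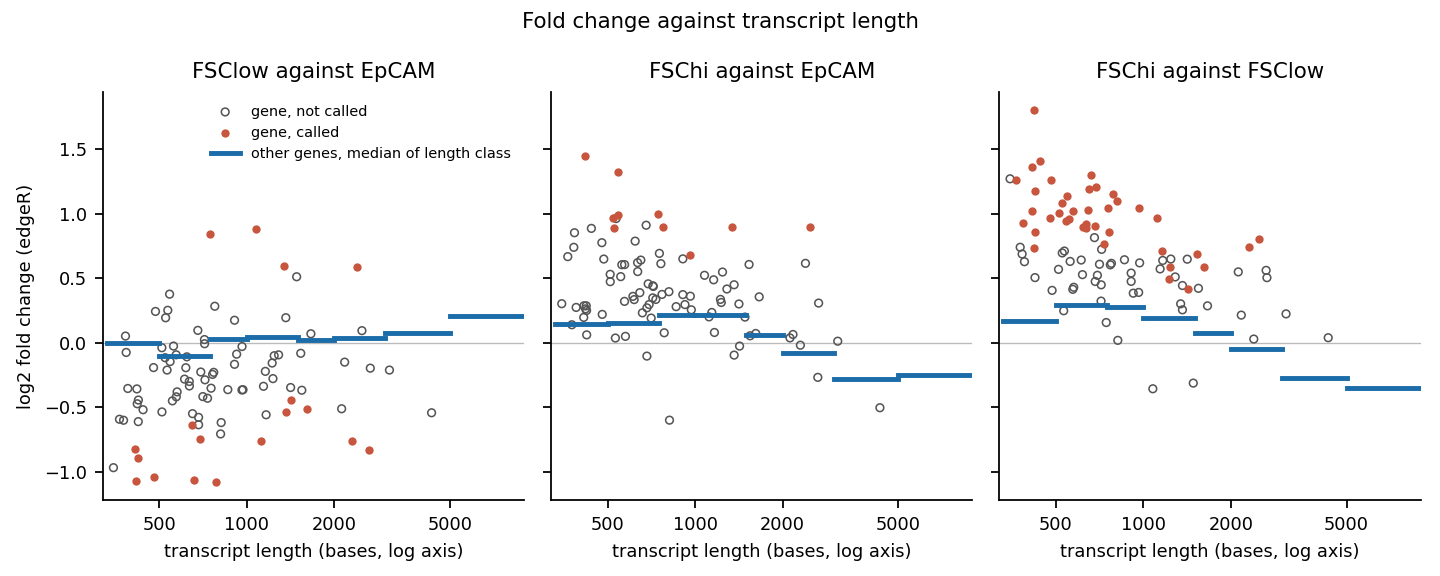
Log2 fold change from edgeR (y axis) against transcript length in bases (x axis, log) for the 91 tested genes with a length, in the 3 comparisons; filled points passed an adjusted p of 0.05 and blue lines are medians of all other genes in length classes. In FSChi against FSClow most points lie above the blue line of their class, and the blue lines fall from about 0.29 at 500 to 750 bases to -0.35 at 5000 bases or more.

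Genes that work with the respiratory chain were described from lists given by function. The 13 subunits encoded by mitochondrial DNA had 0 calls between FSChi and FSClow in either direction, beside 15.5% higher and 9.3% lower of all genes. At an unadjusted p under 0.05 (edgeR), 2 were higher and 0 lower, and their median log2 fold change was 0.45. In FSChi against EpCAM 4 of 13 were higher at an adjusted p under 0.05, beside 13.5% of all genes at that threshold. At an unadjusted p under 0.05, 11 of 13 were higher, with no share of all genes to set beside it. The 13 genes were measured in the same libraries. The 4 were ND3 (log2 fold change 1.52 ± 0.56, SE, edgeR adjusted p = 0.049), ND6 (1.13 ± 0.29, SE, edgeR adjusted p = 0.0056), COX2 (0.93) and COX3 (0.92). In FSClow against EpCAM 1 of 13 was higher, ND6, beside 22.0% of all genes. Their summed level was 12914 to 32181 CPM in FSClow, 17802 to 38139 CPM in FSChi and 9251 to 21871 CPM in EpCAM. EpCAM replicate 5, the highest EpCAM library for the nuclear genes, was the lowest for the mitochondrial ones. Cytochrome c, Cycs, and the cytochrome c1 gene Cyc1, which do not carry the prefixes, were higher in FSChi than in FSClow by 0.95 ± 0.23 and 0.78 ± 0.17 (SE, log2, edgeR adjusted p = 0.0032 and 0.0011), 2 of 7 tested in that list with 0 lower. Assembly factors outside the prefixes had 4 of 37 higher, a share below the 15.5% of all genes, 0 lower, and a median of 0.10.

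Of 14 regulators of mitochondrial genes, 1 was higher and 0 lower in FSChi than in FSClow, beside 15.5% and 9.3% of all genes. In FSClow against EpCAM 2 were higher and 2 lower, beside 22.0% and 23.1% of all genes. In FSChi against EpCAM 1 was higher and 2 lower, beside 13.5% and 12.2%. The counts of this list were near or below these shares. The 1 gene higher in FSChi than in FSClow was Ppargc1a, a coactivator of mitochondrial gene transcription, with 0.497 ± 0.791 CPM (SD, n = 9) in FSClow, 4.14 ± 3.85 CPM (SD, n = 5) in FSChi and 26.4 ± 9.35 CPM (SD, n = 5) in EpCAM. Against EpCAM it was lower in both, by log2 values of -5.70 ± 0.65 (SE, edgeR adjusted p = 1.2e-07) in FSClow and -2.61 ± 0.65 (SE, edgeR adjusted p = 0.0044) in FSChi. Yy1 was higher than in EpCAM in FSClow by 1.05 and in FSChi by 1.03 (log2). The median of this list in FSChi against FSClow was -0.39.

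Glycolysis genes had 10 of 20 higher in FSChi than in FSClow and 0 lower, and 10 of 20 lower and 3 higher in FSClow than in EpCAM. For these and the next lists, the shares of all genes were 15.5% higher and 9.3% lower in FSChi against FSClow, and 22.0% higher and 23.1% lower in FSClow against EpCAM. Ldha, the lactate dehydrogenase A subunit, had 126 ± 28.5 CPM (SD, n = 9) in FSClow, 314 ± 40.2 CPM (SD, n = 5) in FSChi and 417 ± 31.5 CPM (SD, n = 5) in EpCAM, with log2 fold changes of 1.32 and -1.73 for FSChi against FSClow and FSClow against EpCAM. Pkm, the muscle type pyruvate kinase, was lower than in EpCAM by log2 fold changes of -2.05 in FSClow and -1.01 in FSChi, and Pfkm, a phosphofructokinase, by -3.99 and -1.63. Tricarboxylic acid cycle and pyruvate entry genes had 8 of 25 higher and 0 lower in FSChi against FSClow, with Idh3b and Pdhx higher by 0.61 and 0.94, and 1 higher and 6 lower in FSClow against EpCAM. Of 9 carrier and porin genes 6 were higher in FSChi than in FSClow and 0 lower. Ckb, the cytosolic creatine kinase, had a log2 fold change of 3.55 between FSChi and FSClow, with 27.2 ± 12.3 CPM (SD, n = 9) in FSClow, 318 ± 195 CPM (SD, n = 5) in FSChi and 683 ± 144 CPM (SD, n = 5) in EpCAM. The mitochondrial creatine kinase gene Ckmt1 was higher in FSChi than in FSClow by 1.3 ± 0.16 (SE, log2, edgeR adjusted p = 1.6e-06). These counts stand beside the same markers of other cells in FSChi given above, whose part in them was not tested.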

How the data were processed

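Sorted-cell RNA-seq libraries were analysed from the authors' deposited tables. The count table held whole-number read counts per Entrez gene for 19 libraries. The deposited normalized table held signal values that are counts divided by a size factor per library: all 26221 rows gave whole reads (100.0% of values, tolerance 0.01), and a fit on these reads called 5855, 3372 and 3265 genes in FSClow against EpCAM, FSChi against EpCAM and FSChi against FSClow. The deposited single-library files held RSEM expected counts, rounded here to whole numbers, and TPM, per the file headers. STAR 2.4.2a, Picard 1.1073, RSEM 1.2.21, featureCounts, DESeq2 and build mm10 are named in the submitters' processing notes. Filters and strand use are not given in the sources used here. Symbols came from RefSeq (25275 rows) or the normalized table (582), and 1322 rows had none. Coordinates are GRCm38, 1-based.

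Counts were tested with edgeR 4.0.16 in R 4.3.3: filtering on low counts by group, TMM scaling, a robust quasi-likelihood fit of all 19 libraries on group, and Benjamini-Hochberg adjustment over 13340 genes at 0.05. SE was the log2 fold change divided by the square root of F, and the fit was tested on simulated counts. CPM used TMM-scaled library sizes. A count of 0 was taken to allow 3 counts, which covers counting error only. Alternatives used limma 3.58.1, DESeq2 1.42.0, other scalings, filters and quantifications, a replicate block, and each library left out in turn. Leaving out 4 libraries, length-trend offsets, recovered reads and the 18-file fits were chosen after seeing the data.

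Genes named in the text were, per role and comparison, up to 5 called genes of smallest p, the 3 of highest level per role, and isoform groups. From them, 35 pairs of gene and comparison were followed through all alternatives but the 19-file fits, which hold a nearly empty file. Adjusted p-values given over the alternatives leave those fits out too. The pairs were chosen after their values were seen, and other genes in the text were also named after their values were seen. The genes and lists were chosen with earlier results of these data known. For 14 of 19 libraries the count column matched its own single-library file; the others matched another file of the same group or none clearly. The file of FSChi replicate 3 held 6807 expected counts, against 1132867 in the next smallest, and was left out of the 18-file fits.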

Additional observations from a re-analysis of the deposited data

Results flagged for a closer look

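In 90 groups of libraries checked, 11 had a library whose gap to its nearest neighbour was large for the range of its group, where chance gives about 1 in 20. EpCAM replicate 5 was the highest EpCAM library in 8 of them. Its summed ATP synthase level was 4349.7 CPM, next to 2977 CPM in the nearest library. For single genes it had 45.3 CPM of Ndufa1 (nearest 20.9 CPM), 254 CPM of Cox8a (nearest 130.0 CPM), 1318 CPM of Atp5b (nearest 898 CPM) and 201 CPM of Ndufa10 (nearest 124 CPM). It also had 37.2 CPM of Uqcr10 (nearest 21.6 CPM), 164 CPM of Cox6a1 (nearest 69.4 CPM) and 40.2 CPM of Atp5mpl (nearest 22.6 CPM). FSChi replicate 1 was highest for Ndufa1, at 92.6 CPM with 59.5 CPM in the nearest FSChi library. FSClow replicate 1 was highest for Uqcr10, at 37.7 CPM with 22.2 CPM next to it. FSClow replicate 7 was lowest for Atp5b, at 644 CPM with 783 CPM next to it.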

How the results depend on the processing

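Of 35 pairs of gene and comparison followed through 34 alternatives, 13 kept their call in all of them, 22 lost it in 1 or more, and 0 reversed. These 34 do not include the 19-file fits. The fit on libraries matching their own file kept all FSClow libraries but only FSChi replicates 1 and 2 and EpCAM replicates 3, 4 and 5. The part of the smaller groups in its results was not tested. Apart from leaving out libraries, most calls were lost in that fit (14 pairs) and with the replicate block (10). Of 15 such alternatives, the call was lost in 13 for Sdha and 6 for Ndufa9 in FSClow against EpCAM, in 12 for Ndufs8, 8 each for Cox6c and Ndufs5 and 7 for Sdhaf1 in FSChi against EpCAM, and in 5 for Atp5b in FSChi against FSClow. Leaving out 1 library gave ratios of summed levels of 0.838 to 0.990 for FSClow to EpCAM. The ratios were 1.22 to 1.46 for FSChi to EpCAM and 1.39 to 1.55 for FSChi to FSClow. In every alternative run the ratios moved by less than 1 SD. That SD was derived from the spread between libraries, so moves below it do not show that the ratios were stable. Counts of called genes moved too, and the cause was not tested. In FSClow against EpCAM, 4 genes were higher and 14 lower. The higher count was 2 with RLE scaling, DESeq2, log2(normalized + 1) or 18 RSEM files, 1 with 19 RSEM files, 0 in the libraries matching their own file and 0 on 19 TPM files at either pseudocount (0.1 or 1). The lower count was 24 with RLE scaling, 26 with DESeq2, 36 with log2(normalized + 1), 25 without the 4 libraries of high ribosomal protein level, 24 with length-trend offsets and 0 on 19 TPM files. In FSChi against EpCAM, with 10 higher, the count was 6 with RLE scaling or no filter, 1 in matching libraries or 19 RSEM files, 4 with 18 RSEM files, 0 on 19 TPM files, 27 without the 4 libraries and 18 with length-trend offsets. In FSChi against FSClow, with 40 higher, it was 17 in matching libraries, 19 with 19 RSEM files, 0 on 19 TPM files and 64 without the 4 libraries. A lower call appeared for 1 gene in FSChi against EpCAM (Cox8b, 18 TPM files, either pseudocount) and for 1 in FSChi against FSClow (Cox7a2l, 18 TPM files or length-trend offsets). The 19-file fits hold the nearly empty file.

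Leaving out 1 library gave 1 to 4 higher and 7 to 26 lower genes in FSClow against EpCAM, 4 to 25 higher in FSChi against EpCAM, and 22 to 56 higher in FSChi against FSClow, with 0 lower in the last 2. Same-numbered libraries showed no regular pairing: the correlation of their deviations from the group means was -0.19 to 0.40 over 15 pairs. The highest value belonged to FSChi replicate 1 and FSClow replicate 1, both among the 4 libraries of high ribosomal protein level. The other pairs of FSChi and FSClow had -0.10 to 0.05. Whether replicate 1 of these groups shares a source is not given by the labels. With the replicate block, 2 genes were higher and 6 lower in FSClow against EpCAM, 9 were higher in FSChi against EpCAM and 16 in FSChi against FSClow. Depth limits the genes near 0, where 3 counts over all libraries come to 0.0390 CPM.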
